A study of Mus musculus with 40 samples.

Results

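Immediate early genes are genes whose transcription starts within minutes of a stimulus, from proteins that are already in the cell. Growth factor and stress kinases act on transcription factors such as Creb1 and the Srf partners Elk1 and Mkl1, these switch the genes on, and feedback genes of the same class then shut the response down. In airway and lung epithelium they are known to respond to wounding, growth factors, irritants and tissue handling. 10 such genes were described here, chosen by name as standard members of the class: Fos, Fosb, Jun and Junb, which make subunits of the AP-1 transcription factor, Egr1, a zinc finger transcription factor, Atf3, a stress-induced transcription factor, Zfp36, which binds mRNAs and speeds their decay, Btg2, an antiproliferative cofactor, Ier2, a small nuclear protein, and Dusp1, a phosphatase that inactivates MAP kinases. They were 10 of the 37310 genes in the count table, and all 10 were among the 15630 genes that passed the gene filter and were tested.

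The RNA came from female A/J and SWR/J mice that entered the experiment at about 8 weeks of age. N-nitroso-tris-(2-chloroethyl)urea (NTCU), a carcinogen painted on the skin that gives rise to squamous lesions of the airway, was applied at 40 or 80 mmol/L over 14 to 25 weeks, and control mice received the solvent acetone. 25 of the 40 samples carried the passed quality label: 7 normal samples without NTCU (4 SWR/J, 3 A/J), 5 with mild dysplasia (all SWR/J, 15 umol NTCU in total) and 13 high-grade samples (8 SWR/J, 5 A/J, 14 to 50 umol), which comprised 9 with moderate to severe dysplasia, 2 with severe dysplasia, 1 with carcinoma in situ and 1 with squamous cell carcinoma (SCC). 13 were tissue cut out by laser capture microdissection (LCM) and 12 were whole lung sections, whose label gives the worst grade in the section and whose RNA comes from all tissue in it. The labels do not say which samples share a mouse, so p-values measure the spread between these samples. Mild dysplasia replicates 2 and 5, both SWR/J LCM samples, carry titles that differ only in a final letter. Whether they came from 1 mouse is not stated, and they were treated as separate samples. For 2 of the 25 samples the description in the labels disagrees with the grade used: normal replicate 10 is described as mild dysplasia and mild dysplasia replicate 5 as normal histology. Severe dysplasia replicate 2 (median TIN 21.7, 16.4% of reads uniquely aligned) and normal replicate 8 (60.7 and 31.6%) were left out together as an alternative. The first had the lowest value of both measures, while the second was within the range of the other samples. Depth ran from 2667387 to 16534728 expected counts, and median TIN, a measure of RNA integrity from 0 (degraded) to 100, lay between 21.7 and 75.1. Basal cell markers (Krt5, Krt14, Trp63 and Krt15 summed) were present in every sample, at 82.2 to 6070 CPM (expected counts scaled to a common library size) in LCM samples and 28.5 to 3510 CPM in whole lung samples, and T cell markers (Cd3e, Cd3d, Cd8a and Cd4 summed) ranged from 3.78 to 2490 CPM over the 25 samples.

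The sequences just before the starts of 4 of the genes are shown because these genes carried the results below: Fos and Dusp1, whose levels followed each other most closely, Jun, which differed between LCM and whole lung, and Btg2, the 1 member below 0 in mild dysplasia. RefSeq (GRCm38.p6) gave a promoter for 8 of the 10 genes, all but Egr1 and Ier2. Each line holds the 250 bases before the start, 5′ to 3′ on the gene's own strand, with TGACG on either strand in capitals. TGACG is one arm of the cAMP response element TGACGTCA, to which Creb1 binds.
Fos: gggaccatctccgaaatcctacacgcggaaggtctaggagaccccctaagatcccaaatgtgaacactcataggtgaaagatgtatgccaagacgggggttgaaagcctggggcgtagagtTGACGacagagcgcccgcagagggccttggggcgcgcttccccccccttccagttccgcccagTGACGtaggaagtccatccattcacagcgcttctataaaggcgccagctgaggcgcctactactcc
Dusp1: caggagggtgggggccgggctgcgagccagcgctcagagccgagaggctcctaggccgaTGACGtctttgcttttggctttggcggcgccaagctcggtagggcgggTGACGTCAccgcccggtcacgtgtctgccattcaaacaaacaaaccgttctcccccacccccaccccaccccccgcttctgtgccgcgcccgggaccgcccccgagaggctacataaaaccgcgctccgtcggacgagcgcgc
Btg2: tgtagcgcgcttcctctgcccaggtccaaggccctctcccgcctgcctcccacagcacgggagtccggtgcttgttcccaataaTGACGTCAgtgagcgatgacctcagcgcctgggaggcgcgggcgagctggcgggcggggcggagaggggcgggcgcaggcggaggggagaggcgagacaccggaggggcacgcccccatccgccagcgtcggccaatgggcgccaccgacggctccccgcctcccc
Jun: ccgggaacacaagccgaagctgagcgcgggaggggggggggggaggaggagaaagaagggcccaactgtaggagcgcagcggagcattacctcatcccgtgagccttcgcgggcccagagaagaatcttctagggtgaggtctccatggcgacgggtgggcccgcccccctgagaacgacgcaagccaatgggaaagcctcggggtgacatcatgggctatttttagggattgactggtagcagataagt
They lie at chr12:85473640-85473889 (Fos, plus strand), chr17:26508473-26508722 (Dusp1, minus strand), chr1:134079156-134079405 (Btg2, minus strand) and chr4:95052223-95052472 (Jun, minus strand). TGACG occurred on either strand in 6 of the 8 promoters (Fos, Fosb, Junb, Atf3, Btg2 and Dusp1), and in 17.8% of all 32851 promoters of the same length. The whole TGACGTCA, which holds TGACG on both strands, was in 2 of the 8 (Btg2, from 166 bases before the start, and Dusp1, from 143 bases before it) and in 1.55% of all promoters. The Fos promoter held TGACG at 129 and at 66 bases before the start, and Dusp1 held a further one at 191. TGACTCA, the AP-1 site, was in 0 of the 8 and in 4.46% of all promoters. The CArG box, to which Srf binds, was in 1 of the 8 (Zfp36) and in 1.47% of all promoters. A match of letters is a description of this window only, and these 250 bases leave out elements that lie farther from the start.

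Per length of transcript the members differed widely in level. Over the 25 samples the median was 50.3 CPM per kilobase of exon for Junb, 44.1 for Btg2, 39.9 for Dusp1, 35.7 for Zfp36, 35.4 for Ier2, 15.7 for Fos and for Jun, 13 for Egr1, 5.04 for Atf3 and 0.583 for Fosb. The first 5 genes overlapped in their ranges over samples (Junb 14.7 to 124, Btg2 13.5 to 127, Dusp1 10.3 to 98.6, Zfp36 21.5 to 71.1 and Ier2 15.0 to 68.0), so their order is not larger than the spread between samples. Fosb was the least abundant member, with 0 to 159 expected counts and a median of 17, so its values carry the largest counting error. In contrast, the median of Btg2 was 1285 expected counts and that of Dusp1 876. The spread over samples on the log2 CPM scale (SD, n = 25) was 1.28 for Fosb, 1.18 for Fos, 0.95 for Jun and 0.90 for Dusp1, and 0.67 to 0.73 for Junb, Egr1, Atf3 and Btg2. Ier2 (0.47) and Zfp36 (0.38) varied least.

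8 of the 10 members had their highest value in the same sample, the A/J whole lung with carcinoma in situ, in which log2 CPM was 6.67 for Fos, 4.08 for Fosb, 7.81 for Junb, 6.38 for Egr1, 4.44 for Atf3, 7.0 for Zfp36, 6.70 for Ier2 and 8.06 for Dusp1. The exceptions were Jun, highest in another A/J whole lung sample (moderate to severe dysplasia replicate 14, 6.73), and Btg2, highest in the normal A/J whole lung (8.44). This sample had a median TIN of 55.8 and 8625998 expected counts, both within the range of the other samples. At the other end, normal replicate 6, an SWR/J whole lung, had the lowest value of 5 members (Fos 2.42, Jun 3.33, Junb 4.75, Atf3 1.72 and Ier2 4.53). Normal replicate 7 (SWR/J whole lung, median TIN 28.9) had the lowest of 3 (Fosb -2.23, at 0 counts, Egr1 3.72 and Zfp36 5.28). The share of all genes with their highest or lowest value in these samples was not determined. These counts therefore do not show a trait particular to the members.

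**Figure D1:**
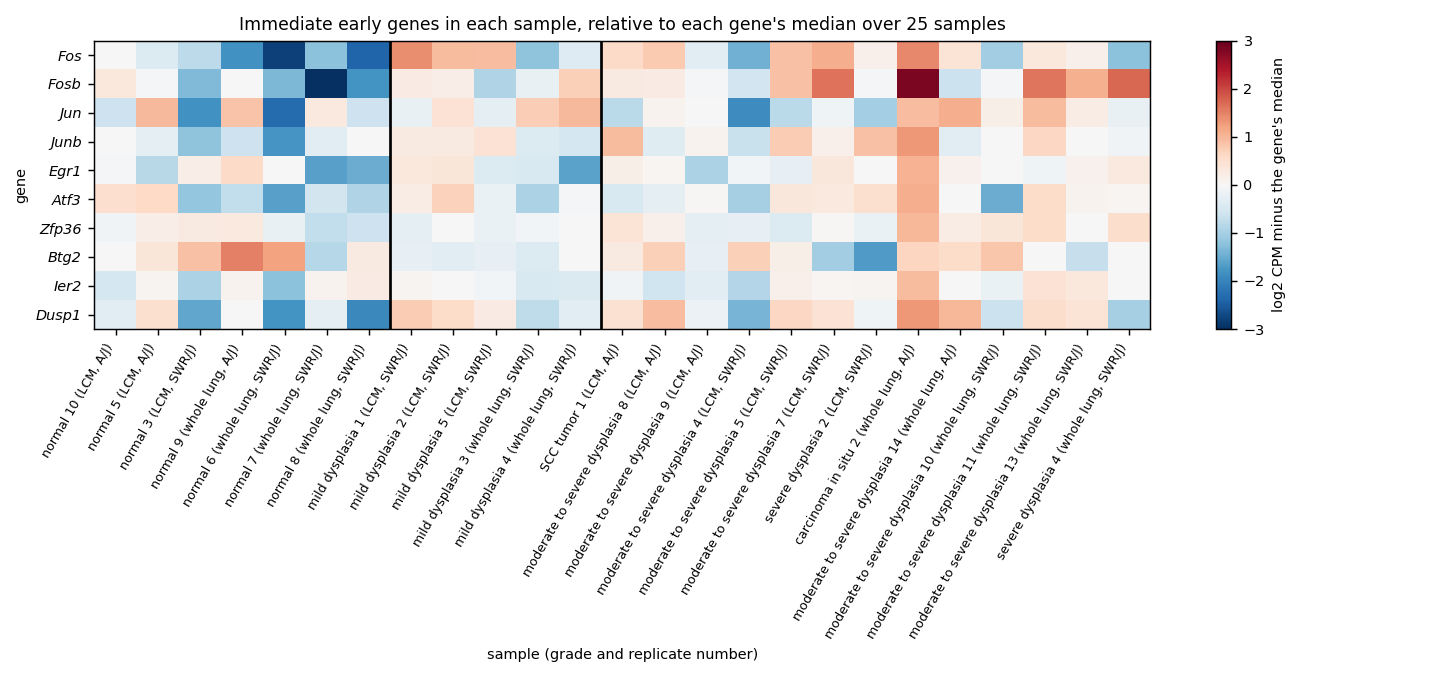
Each column is 1 of the 25 samples, named by grade and replicate number with sample type and strain, and each row a gene. Color gives log2 CPM minus the gene's median over the 25 samples, and black lines separate normal, mild and high-grade samples. The carcinoma in situ sample is above the median for 10 of the 10 genes, and normal replicate 6 has the lowest value of 5.

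The first comparison was between mild dysplasia and normal samples, in a model that also held median TIN, strain and sample type. All mild dysplasia samples had received 15 umol NTCU and no normal sample had received any. Grade and NTCU exposure therefore cannot be told apart in this comparison. Fos and Dusp1 rose, the subunit that pairs with Jun proteins in AP-1 and the phosphatase that switches off the kinases upstream of it. In normal samples log2 CPM of Fos was lowest at 2.42, with a median of 3.99 and a highest value of 5.22, and in mild dysplasia it was 6.62, 6.17 and 6.14 in the LCM samples and 4.02 and 4.83 in the whole lung samples. The 2 groups overlapped as a whole but not within a sample type, since the 3 normal LCM samples were at 4.43, 4.81 and 5.22 and the 4 normal whole lung samples at 2.42, 2.81, 3.41 and 3.99. The log2 fold change of Fos was 2.04 (SE 0.46, a 4.10-fold difference, 95% interval of the log2 value 1.09 to 2.98, adjusted p = 0.0174 in edgeR's quasi-likelihood test), and 5 of 5 samples were above the normal mean of 3.87 ± 1.04 (SD, n = 7). Fos passed the threshold in 11 of 15 alternative fits and was lost with LCM alone (1.58, SE 0.63, adjusted p = 0.383), whole lung alone, no strain and sample type in the model, or all 40 samples. In these fits 0 genes in all were called, except for 1 with all 40 samples, so the loss was not particular to Fos.

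Dusp1 in normal samples was lowest at 4.81, with a median of 6.43 and a highest value of 7.24. The mild dysplasia samples were at 7.52, 7.29 and 7.0 (LCM) and 5.99 and 6.42 (whole lung), so the groups overlapped, and 2 of 5 exceeded the highest normal sample. Its log2 fold change was 1.5 (SE 0.38, a 2.84-fold difference, adjusted p = 0.0222). The call of Dusp1 depended on the model: the value was 1.23 (adjusted p = 0.0551) with median TIN left out, 0.75 (adjusted p = 0.34) with strain and sample type left out, and 1.44 (adjusted p = 0.0528) without normal replicate 3, the normal SWR/J LCM sample. It was also lost with LCM alone (1.38), whole lung alone (1.53) and all 40 samples (1.16). Genes called in all were 1925 with median TIN left out and 644 without normal replicate 3. They were 0 with strain and sample type left out, LCM alone and whole lung alone, and 1 with all 40 samples. These 2 were the members called of 10, and the share of all 15630 genes called as higher in mild dysplasia was 5.21% (12.4% in either direction). The median log2 fold change was 0.77 over the 10 members and -0.02 over all genes tested, and 9 of the 10 were positive.

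The other members had larger errors relative to their differences. Jun, the main partner of Fos, had a log2 fold change of 1.31 (SE 0.45, adjusted p = 0.056). Its mild dysplasia samples were at 5.43, 6.08 and 5.35 (LCM) and 6.39 and 6.63 (whole lung), inside the normal range of 3.33 to 6.62 except for the last, and it passed the threshold under DESeq2 (adjusted p = 0.0217), limma voom (0.0207), no TMM (0.042) and SWR/J alone (0.0356). Jun overlaps the transcript BC042782 on the opposite strand, which had a median of 21 expected counts against 404 for Jun, and the library kit does not mark strand. Fosb (1.38, SE 0.73), Atf3 (0.85, SE 0.41) and Junb (0.69, SE 0.37) were positive with adjusted p-values of 0.189, 0.156 and 0.200. Egr1 (0.24, SE 0.38), Ier2 (0.32, SE 0.28) and Zfp36 (0.12, SE 0.23) had adjusted p-values of 0.434 to 0.739. Btg2, whose protein restrains proliferation, was the 1 member below 0, at -0.76 (SE 0.38, adjusted p = 0.167). Its mild dysplasia samples were close together, at 6.68, 6.61 and 6.68 (LCM) and 6.52 and 6.90 (whole lung), and 0 of 5 were above the normal mean of 7.40 ± 0.80 (SD, n = 7), with normal samples from 6.07 to 8.44.

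**Figure D2:**
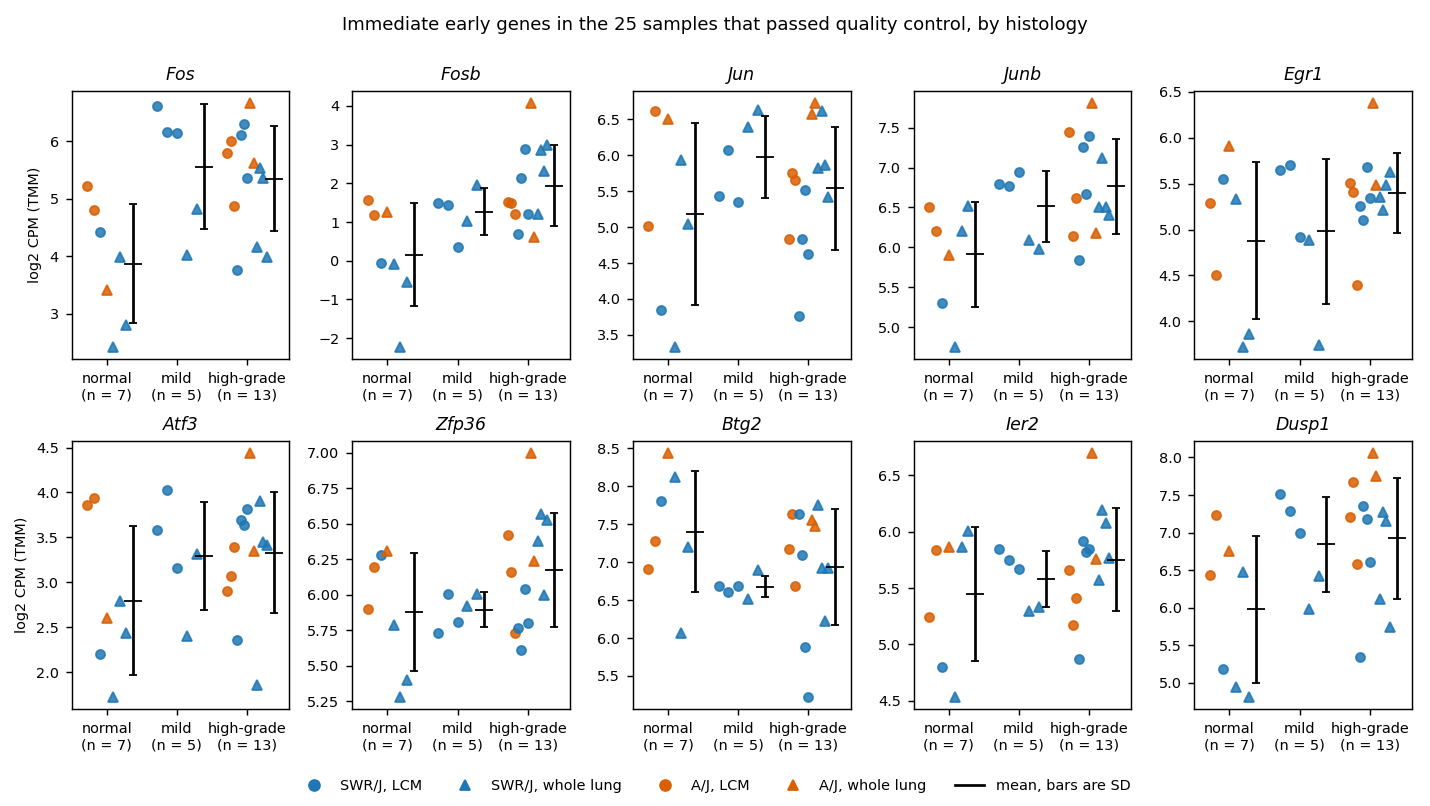
Each panel shows log2 CPM of 1 gene on its own vertical axis, with 1 point per sample by histology, circles for LCM, triangles for whole lung, blue for SWR/J and orange for A/J, and the mean with SD in black. Fos has a mean of 3.87 in normal, 5.56 in mild and 5.35 in high-grade samples, and Btg2 has means of 7.40, 6.68 and 6.94.

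T cell markers differed in the same comparison. 4 of the 4 markers fell in mild dysplasia (log2 fold changes of -6.26 for Cd3d, -8.40 for Cd8a, -5.15 for Cd3e and -4.89 for Cd4, adjusted p = 0.0188 to 0.0329). Their sum was 71.7 to 2490 CPM in normal samples and 8.48 to 115 CPM in mild dysplasia, with none at 0 in all samples of a group. Of the other cell type lists, 1 of 3 fibroblast markers rose, and 0 of the markers of basal, club, ciliated, alveolar, endothelial, macrophage, B cell, neutrophil, smooth muscle and cardiac muscle cells passed the threshold. Their levels still differed. Median log2 fold changes were 2.39 for alveolar type 2, 2.1 for cardiac muscle, 2.05 for ciliated and 1.95 for alveolar type 1 markers. They were 0.87 to 1.31 for basal, club, endothelial and smooth muscle markers, 0.22 for neutrophil, 0.02 for macrophage and -1.82 for B cell markers. In such bulk samples, fewer cells of a type and less RNA per cell cannot be told apart. The part of these markers in the differences of Fos and Dusp1 was not tested.

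High-grade samples were then compared with normal samples. All high-grade samples had received NTCU, so grade and exposure cannot be told apart here either. 0 of the 10 members passed the threshold in edgeR, and 3 of 15630 genes did in all (0.0192% in either direction). At an unadjusted p under 0.05 there were 4 members (Fos, Fosb, Junb and Dusp1), against 1429 genes, or 9.14%, of all genes tested, and DESeq2 and limma voom also called 0 members. High-grade samples ranged from 3.77 to 6.67 in log2 CPM of Fos, with a median of 5.53, and 12 of 13 were above the normal mean. The log2 fold change of Fos was 1.32 (SE 0.38, adjusted p = 0.324). That of Fosb, a short-lived relative of Fos, was 1.83 (SE 0.61, adjusted p = 0.399). Its normal mean was 0.16 ± 1.33 (SD, n = 7), which 13 of 13 samples exceeded. Junb (0.77, SE 0.30, adjusted p = 0.477) and Dusp1 (0.79, SE 0.29, adjusted p = 0.451) were above the normal mean in 12 and 11 of 13 samples. Jun had a log2 fold change of 0.25 (SE 0.33), Egr1 of 0.24 (SE 0.31), Atf3 of 0.33 (SE 0.34), Zfp36 of 0.35 (SE 0.18), Ier2 of 0.17 (SE 0.22) and Btg2 of -0.23 (SE 0.30), with adjusted p-values of 0.57 to 0.817. The median over the members was 0.34, and it was -0.01 over all genes tested.

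The direct comparison of high-grade with mild dysplasia samples called 0 members, while 0.326% of all genes were called. At an unadjusted p under 0.05 there was 1 member, against 22.5% of all genes. Jun had the smallest p among the members there (log2 fold change -1.06, SE 0.42, unadjusted p = 0.0202, adjusted p = 0.148), and Dusp1 (-0.72, SE 0.36) and Fos (-0.71, SE 0.46) had adjusted p-values of 0.241 and 0.359. Mild dysplasia and high-grade samples were therefore not distinguished by any member in this fit, and for Fos the 95% interval of the difference runs from -1.66 to 0.24. With the 9 moderate to severe samples alone against normal, 0 members and 0 genes in all were called in edgeR, and at an unadjusted p under 0.05 there were 3 members (Fos 1.17, Fosb 1.49 and Dusp1 0.81) and 1170 genes (7.49%).

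Along the rank of grade (normal 0, mild 1, moderate to severe 2, severe 3, carcinoma in situ or SCC 4), 0 members passed the threshold, and 0.262% of all genes did. Within each strain the NTCU dose rose with the grade, so rank and dose cannot be told apart. 4 members had an unadjusted p under 0.05, against 13.7% of all genes. Junb, an AP-1 subunit that can restrain Jun, came closest at 0.34 per step of grade on the log2 scale (SE 0.09, adjusted p = 0.0958), followed by Fosb at 0.64 (SE 0.20, adjusted p = 0.161), Zfp36 at 0.16 (SE 0.06, adjusted p = 0.23) and Fos at 0.46 (SE 0.17, adjusted p = 0.243). Junb passed the threshold under DESeq2 (adjusted p = 0.0293), with median TIN left out (0.0434), with strain and sample type left out (0.037) and with the share of uniquely aligned reads added (0.0136). Fosb passed it under DESeq2 (adjusted p = 0.0255) and with strain and sample type left out (0.0442). The highest Junb values were those of the carcinoma in situ sample (7.81) and the SCC tumor (7.45). The value of Jun per step was -0.03 (SE 0.15).

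**Figure D3:**
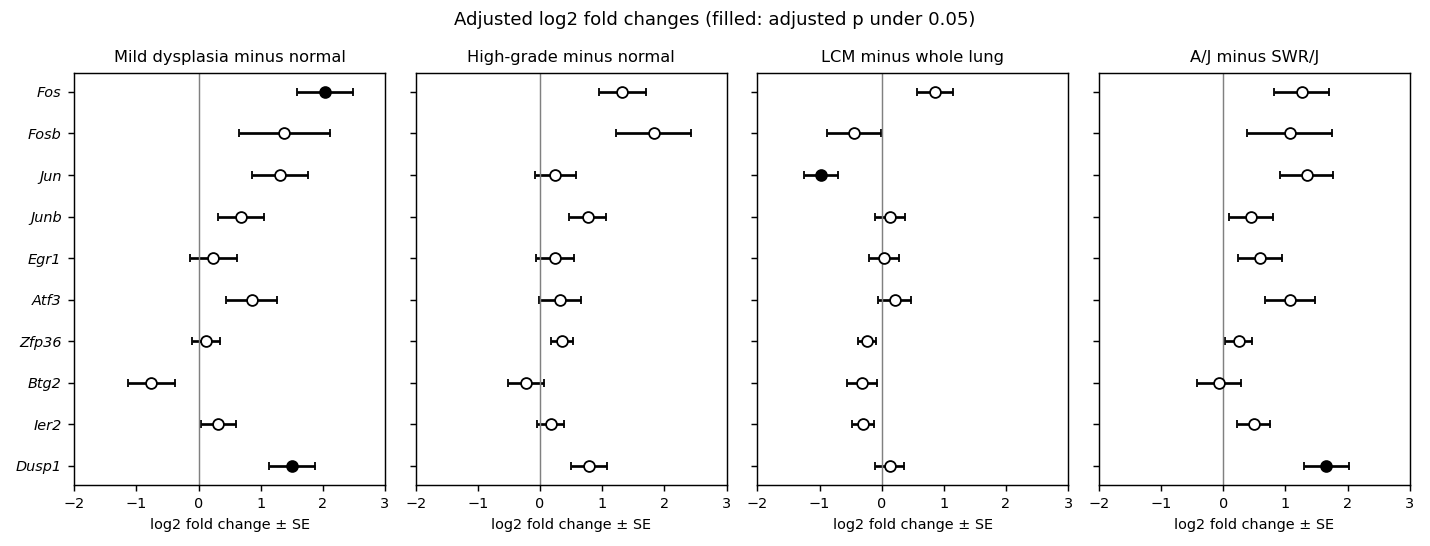
Each panel gives the log2 fold change of the 10 genes (points) with its SE (bars) in 1 comparison of the same model, from left to right mild dysplasia minus normal, high-grade minus normal, LCM minus whole lung and A/J minus SWR/J. Filled points have an adjusted p under 0.05, which are Fos (2.04) and Dusp1 (1.5) in mild dysplasia, Jun (-0.97) in LCM and Dusp1 (1.66) in A/J.

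Between the sources of RNA, Jun was lower in LCM samples, and it was the 1 member that passed the threshold. Log2 CPM of Jun in whole lung samples was lowest at 3.33, with a median of 6.17 and a highest value of 6.73. In LCM samples it was lowest at 3.76, with a median of 5.35 and a highest value of 6.62, so the sources overlapped over most of their range. The log2 fold change of Jun was -0.97 (SE 0.27, adjusted p = 0.0208). The value of Fos, its partner in AP-1, was 0.86 (SE 0.29, adjusted p = 0.0528) and did not pass, though it passed the threshold under DESeq2 (adjusted p = 0.0222) and without the carcinoma in situ sample (1.07, adjusted p = 0.0174). Jun was 1 of 10 members called, and 8.93% of all genes were called as lower in LCM. The remaining 8 members had log2 fold changes from -0.45 (Fosb) to 0.21 (Atf3) with adjusted p-values of 0.259 to 0.931. Without the 2 samples whose description gives another histology, Jun was at -0.92 (adjusted p = 0.0559), with SWR/J alone at -1.17 (adjusted p = 0.0577) and with all 40 samples at -0.75 (adjusted p = 0.0823).

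Markers of several cell types moved with the source. 4 of 4 endothelial markers fell in LCM, with a sum of 66.8 to 977 CPM in LCM samples and 136 to 1160 CPM in whole lung samples, as did 2 of 4 alveolar type 2 markers (75.5 to 9220 against 85.8 to 29900 CPM) and 3 of 4 B cell markers (6.23 to 170 against 8.69 to 1680 CPM). 1 of 3 alveolar type 1 markers (Ager, -2.78) and 1 of 4 macrophage markers (Marco, -4.52) fell too, while 1 of 3 club cell markers (Cyp2f2, 1.84) and 1 of 4 ciliated cell markers (Dnahc5, 1.72) rose. Of the basal, T cell, neutrophil, fibroblast, smooth muscle and cardiac muscle markers 0 passed the threshold. Their median log2 fold changes were, in that order, 1.5, -0.88, -0.39, 0.01, 0.24 and -1.61. None of the markers was at 0 in all samples of a source. Their part in the difference of Jun was not tested. Among related genes, Jund (-0.85, SE 0.24, adjusted p = 0.0217), Mafk (-0.70, SE 0.18, adjusted p = 0.0129) and Batf (-0.90, SE 0.26, adjusted p = 0.0247) of the AP-1 partners fell in LCM too, 3 of 11 tested. Of 16 other early transcription factors 5 fell and 0 rose, led by Klf2 (-1.57, SE 0.23, adjusted p = 0.000823), a factor known from endothelium and lymphocytes. Of 25 other feedback genes 5 fell and 0 rose, led by Spry4 (-1.78, SE 0.35, adjusted p = 0.00341), an inhibitor of receptor kinase signaling. Of the upstream genes 3 of 15 fell and of the heat shock genes 0 of 10, and 0 rose in either list. The share of all genes tested that were called as lower in LCM was 8.93%.

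Between the strains, Dusp1 was higher in A/J. A/J samples were at 6.43 to 8.06 log2 CPM, with a median of 7.23 (n = 8), and SWR/J samples at 4.81 to 7.52, with a median of 6.47 (n = 17). The ranges overlapped between 6.43 and 7.52. The log2 fold change was 1.66 (SE 0.36, a 3.16-fold difference, adjusted p = 0.0203), and 0.333% of all genes were called as higher in A/J. Jun (1.34, SE 0.43), Fos (1.26, SE 0.44) and Atf3 (1.08, SE 0.40) had unadjusted p-values of 0.00484, 0.0093 and 0.0135 and adjusted p-values of 0.124 to 0.178. 9 of the 10 members were positive, with Btg2 at -0.07 (SE 0.35), a sign that turned in several alternatives. The median was 0.83 over the members and 0.02 over all genes tested. The call of Dusp1 was lost without any 1 of 4 samples: normal replicate 3 (1.60, adjusted p = 0.0579), normal replicate 8 (1.58, adjusted p = 0.0758), moderate to severe dysplasia replicate 4 (1.5, adjusted p = 0.0537) and carcinoma in situ replicate 2 (1.56, adjusted p = 0.0641). It was lost too in LCM alone (1.12, adjusted p = 0.595), whole lung alone (1.75, adjusted p = 0.448) and all 40 samples (0.87, adjusted p = 0.379). Genes called as higher in A/J were 52 in the main fit and 29 to 40 without any 1 of those 4 samples. They were 2 in LCM alone, 3 in whole lung alone and 39 with all 40 samples. Median TIN was 53.7 to 69.6 in A/J and 21.7 to 75.1 in SWR/J samples, and all mild dysplasia came from SWR/J, so the strain value rests on the model for both. NTCU dose was not in the model. Every high-grade A/J sample had received less NTCU in total than every high-grade SWR/J sample, so strain and dose cannot be told apart in high-grade samples. Of the 6 lists described below, 0 genes passed the threshold between strains in edgeR, and the secreted genes had a median of 1.78.

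Whether the histology differences themselves varied with source or strain was tested with interaction terms, and 0 members and 0 of 15630 genes passed the threshold in edgeR for any of the 3 terms. At an unadjusted p under 0.05 there were 2 members for high-grade by sample type (Zfp36 -0.83, SE 0.28, unadjusted p = 0.00807, and Atf3 -1.24, SE 0.59, unadjusted p = 0.0497) against 1166 genes (7.46%), 1 for mild dysplasia by sample type (Btg2 1.79, SE 0.81, unadjusted p = 0.0388) against 1693 genes (10.8%), and 2 for high-grade by strain (Fosb -2.13 and Jun -1.23) against 678 genes (4.34%). DESeq2 and limma voom also called 0 members for each term. The differences in plain means were nevertheless uneven. Fosb was higher in high-grade than in normal samples by 2.76 in SWR/J (8 against 4 samples) and by 0.45 in A/J (5 against 3), and Zfp36 by 0.76 in whole lung (6 against 4) and by -0.19 in LCM (7 against 3). The SWR/J normal samples held 0 to 10 expected counts of Fosb and the A/J normal samples 27 to 48, so the SWR/J value rests on samples near the counting limit. None of these differences passed the adjustment over all genes. High-grade SWR/J samples had also received more NTCU than high-grade A/J samples, so strain and dose cannot be told apart in the term by strain. For Zfp36 the 95% interval of the term by sample type ran from -1.42 to -0.24.

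RNA integrity was the remaining covariate. In the model, 0 members passed the threshold for median TIN, and 7.31% of all genes did in either direction. Per 10 units of median TIN, Dusp1 had -0.33 on the log2 scale (SE 0.12, adjusted p = 0.0822) and Btg2 0.28 (SE 0.13, adjusted p = 0.194), and at an unadjusted p under 0.05 these were the 2 members, against 25.7% of all genes. Dusp1 passed under DESeq2 (adjusted p = 0.0421), and Btg2 passed with all 40 samples (0.37, adjusted p = 0.000689). Across the 25 samples without other covariates, Btg2 had the strongest relation (Pearson r = 0.505, permutation p = 0.0104, adjusted p = 0.104 over 10 genes, Spearman rho = 0.392, permutation p = 0.0553, adjusted p = 0.276, two-sided). It was 0.694 within LCM samples (n = 13, permutation p = 0.00835, adjusted p = 0.0835, rho = 0.621, permutation p = 0.0266, adjusted p = 0.259) and 0.381 within whole lung samples (n = 12, permutation p = 0.222, adjusted p = 0.918, rho = 0.238, permutation p = 0.456). Without the 2 samples farthest from the median of TIN, r of Btg2 dropped to 0.280 over all samples and to 0.263 within LCM, and it was -0.184 within whole lung, so the relation rests on those samples. For the other 9 genes r lay between -0.296 (Ier2) and 0.176 (Zfp36), with adjusted permutation p-values of 0.679 to 0.842. Without TMM scaling, r was above 0 for 10 of the 10 genes (Ier2 0.012 to Btg2 0.585), so the sign of these weak relations followed the scaling for 7 genes.

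**Figure D4:**
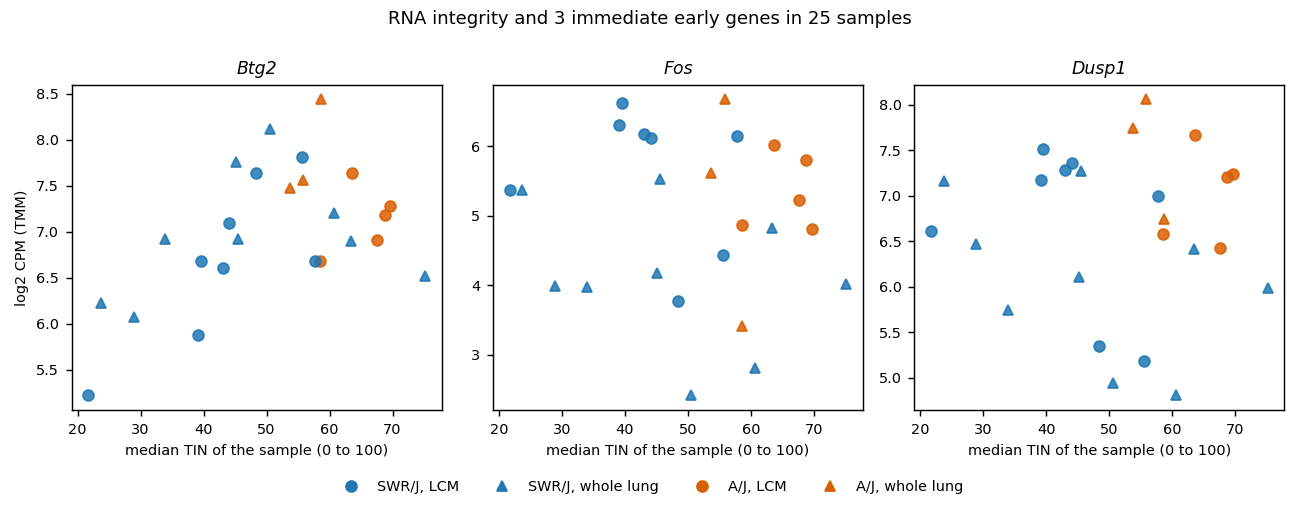
Log2 CPM of Btg2, Fos and Dusp1 (vertical axes, each with its own range) against median TIN of the sample (horizontal axis), 1 point per sample, with circles for LCM, triangles for whole lung, blue for SWR/J and orange for A/J. The lowest Btg2 value, 5.22, is that of the sample with the lowest median TIN, 21.7.

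The members were also compared with each other over the 25 samples, on log2 CPM adjusted for median TIN, strain and sample type. Histology was not adjusted for, so differences between grades are part of these relations. Pearson r between Fos and Dusp1 was 0.916 (permutation p = 1e-05, the smallest that 100000 permutations can give, adjusted p = 0.00015 over 45 pairs, two-sided, Spearman rho = 0.925, permutation p = 1e-05, adjusted p = 0.000225). It was 0.892 without the 2 samples farthest from the median of Fos and 0.924 without the carcinoma in situ sample. Junb and Ier2, which lie near each other on chromosome 8 (87500811 to 87502617 and 87185230 to 87186751 in NCBIM37), had r = 0.852 (permutation p = 1e-05, adjusted p = 0.00015, rho = 0.788, permutation p = 1e-05), and 0.751 without the 2 farthest samples. Jun and Dusp1 had r = 0.768 (permutation p = 1e-05, adjusted p = 0.00015, rho = 0.741, permutation p = 4e-05), and 0.721 without the 2 farthest samples. Of the 45 pairs 36 were positive, the median r was 0.424, and 25 had an adjusted p under 0.05 by Pearson, 19 of them also by Spearman. Pairs of genes outside the class were not examined in this way. These counts therefore do not show whether the members vary together more than other genes do.

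Among Fos, Dusp1, Jun, Atf3, Ier2 and Junb r ranged from 0.445 to 0.916. The lowest value, of Jun and Junb (rho = 0.229 with an adjusted permutation p of 0.357), dropped to 0.107 without the 2 farthest samples, and that of Jun and Ier2 dropped from 0.632 (rho = 0.455 with an adjusted permutation p of 0.0525) to 0.333, so these 2 relations rest on those samples. Egr1 followed Zfp36 (r = 0.709, permutation p = 9e-05, adjusted p = 0.00081, rho = 0.522, adjusted p = 0.020, and 0.549 without the 2 farthest samples) but had r of -0.144 to 0.279 with those 6 genes. Fosb had r = 0.706 with Zfp36, 0.613 with Atf3, 0.586 with Fos, 0.491 with Junb and 0.472 with Dusp1, but 0.411 with Ier2 (adjusted permutation p = 0.0671) and 0.324 with Jun (adjusted permutation p = 0.166), and its relation to Egr1 dropped from 0.537 to 0.159 without the 2 farthest samples. Btg2 was negative with 7 of the other 9, from -0.078 (Fosb) to -0.515 (Atf3, permutation p = 0.00824, adjusted p = 0.0185, rho = -0.366 with an adjusted permutation p of 0.122, and -0.375 without the 2 farthest samples), and positive with Egr1 (0.421) and Zfp36 (0.240). These negative values depended on the scaling. Without TMM, r of Btg2 was -0.193 with Atf3 (adjusted p = 0.422), -0.189 with Jun, -0.185 with Junb and 0.079 with Fosb, and 0 of its negative relations had an adjusted p under 0.05, while r was 0.601 with Egr1 and 0.494 with Zfp36. The median r was 0.372 without adjustment for the covariates, 0.366 without the carcinoma in situ sample and 0.557 without TMM scaling. Genes that share a sample share its grade, RNA quality and cell makeup, and their part in these relations beyond the 3 covariates was not tested.

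**Figure D5:**
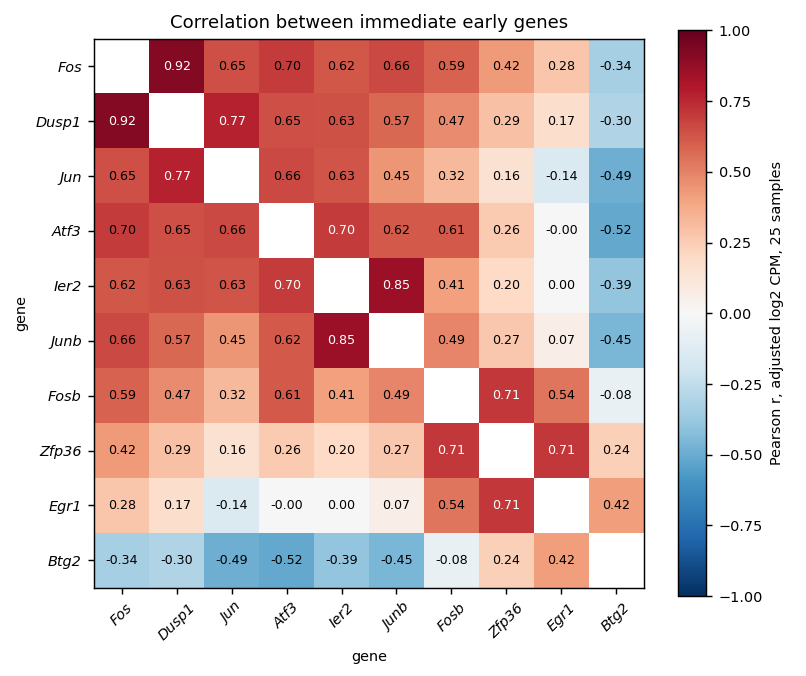
Pearson r between each pair of the 10 genes (rows and columns) over 25 samples, from log2 CPM adjusted for median TIN, strain and sample type, on a color scale from -1 (blue) to 1 (red). Fos and Dusp1 have the highest value (0.92), and the row of Btg2 runs from -0.52 to 0.42.

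Outside the class, the genes whose adjusted values followed the mean z-score of the 10 members most closely over the 25 samples, among 14202 genes with a mean log2 CPM of at least 1, were Dll1 (Pearson r = 0.908), a ligand of Notch receptors, Dbn1 (0.849), an actin-binding protein, Trip10 (0.840), Cdk18 (0.836), Cyr61 (0.836), a secreted matrix protein and itself an early gene, Mark1 (0.829), Fkbp1b (0.826), Tbx1 (0.819), Arl8a (0.812) and Spire2 (0.805). These are the highest of many coefficients and are given as a description. Of the members themselves, Fos (0.869), Dusp1 (0.818) and Fosb (0.800) were closest to that mean, Egr1 was at 0.482 and Btg2 at -0.144. Each member is part of that mean, which raises its r, so these values are not comparable with those of genes outside the class.

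The wider early response was described with 6 gene lists. In mild dysplasia, 6 of 9 tested early secreted genes rose and 0 fell, with a median log2 fold change of 2.33 against -0.02 over all genes. The share of all genes called there was 5.21% as higher and 12.4% in either direction. The secreted genes that rose included Cyr61 (2.36, SE 0.52, adjusted p = 0.0163), Ctgf (1.97, SE 0.50, adjusted p = 0.0228), both matrix proteins, and Hbegf (2.33, SE 0.70, adjusted p = 0.0353), a ligand of the EGF receptor. Of 25 other feedback genes 5 rose and 3 fell (median 0.77). Spry2 (1.51, SE 0.35, adjusted p = 0.0194) and Dusp6 (1.37, SE 0.33, adjusted p = 0.0205), inhibitors of ERK signaling, rose, while Btg1 (-1.25, SE 0.22, adjusted p = 0.0128), a relative of Btg2, and Dusp2 (-3.38, SE 0.84, adjusted p = 0.0222), a phosphatase known from lymphocytes, fell. The T cell markers given above fell in the same samples, and their part in the differences of these feedback genes was not tested.

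Among the transcription factors of the response few genes passed, and the share of all genes called in this comparison was 12.4%. Of 11 AP-1 partners 0 rose and 1 fell, Batf (-1.46, SE 0.41, adjusted p = 0.0303), a factor known from lymphocytes (median 0.55, 8 of 11 positive), and of 16 other early transcription factors 1 rose, Nr4a2 (1.45, SE 0.41, adjusted p = 0.0300), and 1 fell, Csrnp1 (-1.59, SE 0.43, adjusted p = 0.0274). Of 15 upstream kinases and factors 2 rose, Mkl2 (0.98, SE 0.25, adjusted p = 0.0224) and Elk3 (0.47, SE 0.15, adjusted p = 0.0466), both Srf partners, and 0 fell, with a median of -0.30. Of 10 heat shock genes, which respond to stress on proteins, 0 rose and 1 fell, Hspe1 (-1.25, SE 0.35, adjusted p = 0.0294), with a median of -0.01. In high-grade samples 0 genes of the 6 lists passed the threshold in edgeR. The medians there were 1.41 for the secreted genes, 0.44 for the AP-1 partners, 0.25 for the feedback genes, 0.12 for the other transcription factors, 0.09 for the heat shock genes and -0.08 for the upstream genes. The smallest p-values were those of Cxcl1 (2.52, SE 0.63, adjusted p = 0.285) and Nab2 (-0.63, SE 0.16, adjusted p = 0.287), a corepressor of Egr1. Along the rank of grade 1 gene of the lists rose, the neutrophil chemokine Cxcl1 (0.95 per step, SE 0.18, adjusted p = 0.027).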

How the data were processed

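The deposited values are RSEM expected counts per gene, which the authors made from TruSeq libraries with Trimmomatic, STAR and RSEM on mm9 and did not normalize. An annotation of the same assembly (NCBIM37, GENCODE M1) gave symbols and positions for 37310 of 37310 genes. Counts were rounded for edgeR 4.0.16 (TMM, robust quasi-likelihood test) in R 4.3.3, on the 15630 genes with an interquartile range above 0 and a sum above 1 in log2 CPM (prior count of 2), with terms for median TIN, strain and sample type. P-values were adjusted over all 15630 genes (Benjamini-Hochberg, threshold 0.05). The SE is the absolute log2 fold change divided by the square root of F. Permutation tests (100000) and residuals used Python 3.11.15. No 2 samples had identical counts. Alternatives included DESeq2 1.42.0 and limma voom 3.58.1. The tests were checked on simulated data. The members, gene lists and comparisons were chosen with earlier results of these data known. All 10 members are named, and from each list at most 4 genes past the threshold with the smallest p, or 2 where none passed. The 15 samples without the passed label entered the alternative with all 40 and the closing observations. 1 gene that the naming rule selects is not reported here.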

Additional observations from a re-analysis of the deposited data

Results flagged for a closer look

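In groups of 4 to 10 samples, 3 values stood far from the rest of their group by Dixon's criterion at 95%, among 60 groups examined, of which chance flags about 1 in 20. Egr1 was highest in the carcinoma in situ sample at 6.38 log2 CPM, while the next of the 6 high-grade whole lung samples was at 5.63 (gap of 0.642 of the range, critical value 0.625). Egr1 was lowest in moderate to severe dysplasia replicate 9, an A/J LCM sample, at 4.40, with the next of 9 samples at 5.10 (0.549, critical value 0.493). Ier2 was lowest in normal replicate 6 at 4.53, with the next of the 4 normal whole lung samples at 5.86 (0.897, critical value 0.829). No member had an interaction of histology with sample type or strain past the threshold. In the 12 dysplasia and tumor samples without the passed label the median CPM of each of the 10 members was below the highest passed normal sample. A median set against a maximum does not show whether single samples exceeded it, and those counts are given under the other observations.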

How the results depend on the processing

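Each of the 25 samples was left out in turn, and up to 15 other settings were tried for a comparison. No paired analysis was possible because the labels give no replicate numbers shared between the groups. In mild dysplasia, 2 members were called, 3 (with Jun) under DESeq2, limma voom, no TMM and SWR/J alone, 1 with median TIN left out, 0 with strain and sample type left out, with LCM or whole lung samples alone and with all 40 samples, and 1 to 3 when 1 sample was left out (1, Fos, without normal replicate 3, and 3, with Jun, without normal replicate 5 or 7, moderate to severe dysplasia replicate 7 or 11 or the SCC tumor). Genes called in all in mild dysplasia were 1945 in the main fit, 1925 with median TIN left out and 644 without normal replicate 3. They were 0 with strain and sample type left out and with LCM or whole lung samples alone, and 1 with all 40 samples. The counts of all genes in the fits with 3 members called are not given here. High-grade against normal, high-grade against mild dysplasia, moderate to severe against normal and the 3 interactions had 0 members called under every alternative run. Along the rank, 0 members were called, and 41 genes in all. The members called were 2, Fosb and Junb, under DESeq2 (539 genes in all) and with strain and sample type left out (182). They were 1 with median TIN left out (182) or the share of uniquely aligned reads added (261), and 0 without any 1 sample. For LCM the count was 1. It was 2 under DESeq2 (3348 of all genes called in either direction), with a gene filter at a prior count of 0.25 (2245) and without normal replicate 8 and severe dysplasia replicate 2 (2589). It was 0 without the 2 samples with another histology in the description (1295) and with SWR/J alone (565). When 1 sample was left out it was 1 to 2. It was 2 (Fos and Jun) without moderate to severe dysplasia replicate 4 (2235 genes in all), 9 (1925) or 11 (1922). It was 2 too without severe dysplasia replicate 2 (2288) or carcinoma in situ replicate 2 (2064). With all 40 samples the count was 1, as in the main fit, but Fos (1.10) in place of Jun (-0.75). For strain the count was 1, where 52 genes in all were called as higher in A/J. It was 2 under DESeq2 (527 genes in all) and with median TIN left out (1322). It was 0 without normal replicate 8 and severe dysplasia replicate 2 (36), with LCM or whole lung samples alone (2 and 3) and with all 40 samples (39). When 1 sample was left out it was 0 to 2 (2, Jun and Dusp1, without moderate to severe dysplasia replicate 11, where 217 genes in all were called as higher). For median TIN the count was 0 (1143 genes in all), 1 under DESeq2 (2271) and 1 with all 40 samples (2514). It was 0 to 1 when 1 sample was left out (Dusp1, without moderate to severe dysplasia replicate 11, where 904 genes in all were called). The cause of these changes was not tested.

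Some small values changed sign. In mild dysplasia Fosb (-0.03) and Zfp36 (-0.13) did so with LCM alone, Junb (-0.20), Egr1 (-0.51) and Ier2 (-0.30) with whole lung alone, and Zfp36 with strain and sample type left out (-0.02) and with all 40 samples (-0.10). In high-grade samples Jun (-0.32), Atf3 (-0.54), Zfp36 (-0.07) and Btg2 (0.20) did so with LCM alone, and over single samples left out Egr1 ranged from -0.02 to 0.43 and Btg2 from -0.42 to 0.02. For LCM against whole lung Fosb turned with all 40 samples (0.03), Egr1 without TMM (-0.03) and Btg2 with SWR/J alone (0.04), and Egr1 ranged from -0.10 to 0.16 without single samples. For strain Egr1 (-0.25) and Zfp36 (-0.04) turned with LCM alone, and Btg2 with median TIN left out (0.39), with whole lung alone (0.14) and without the 2 samples with another histology in the description (0), and it ranged from -0.37 to 0.09 without single samples. Dusp1 per 10 units of median TIN was 0.07 with strain and sample type left out and 0.03 with all 40 samples. Without TMM, Pearson r with median TIN turned for Fos (0.013), Fosb (0.033), Junb (0.036), Egr1 (0.044), Atf3 (0.030), Ier2 (0.012) and Dusp1 (0.104), it turned for Fosb within whole lung (0.033) and Dusp1 within LCM (0.010), and 1 member (Btg2) then had an adjusted p under 0.05, against 0. The median r of the 45 pairs was 0.424 and rose to 0.557 without TMM. Without the carcinoma in situ sample, an alternative chosen after seeing the data, it was 0.366.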

Other observations

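The 15 samples without the passed label held 17051 to 1965373 expected counts, and the immediate early genes were near their counting limit in many of them. Among the 12 with dysplasia or tumor, Fos had fewer than 3 counts in 3 samples and Fosb in 8. In CPM without TMM, Fos was above the highest passed normal sample (43.2 CPM) in 4 of these 12 samples, Fosb (3.21 CPM) in 4 Junb (105 CPM) in 5, Atf3 (16.7 CPM) in 2 and Dusp1 (160 CPM) in 1, while Jun, Egr1, Zfp36, Btg2 and Ier2 were above it in 0. Of the 3 normal samples without the passed label, Egr1 (73.6 CPM) and Zfp36 (97.5 CPM) were above it in 1 each. Btg2 was at 0 to 46.2 CPM in these 3 samples and at 0 to 89.6 CPM in the 12 with dysplasia or tumor, and the highest passed normal sample was at 429 CPM.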
